A study of Mus musculus with 8 samples.

Results

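The genes described here are the nuclear-encoded subunits, isoforms and assembly factors of oxidative phosphorylation, chosen by name alone. Symbols that start with Nduf, Uqcr or Atp5, the 4 Sdh subunits, and Cox followed by a digit of the small subunit series and a letter were taken from the deposited expression table. Of 48432 genes listed, 104 fitted the name rule, 7 of these carried a pseudogene suffix and were left out, and 97 members remained. Of the members, 93 are annotated as protein coding and 4 (Cox6c2, Ndufa11b, Ndufb4c and Ndufs6b) as processed pseudogenes. The test needed at least 1 FPKM in at least 2 libraries, which 90 members passed. FPKM counts sequenced fragments per length of transcript and per size of library. The 7 below that limit were Atp5g2, Cox4i2, Cox6b2, Cox7b2, Cox8c, Ndufa11b and Ndufb4c, and Cox7b2 and Cox8c were listed at 0 in all 8 libraries.

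The RNA came from livers of wild-type C57BL/6 mice exposed for 30 weeks. The 4 groups, with 2 libraries each, were constant light with PM2.5 (LL-PM2.5), a light/dark cycle with PM2.5 (LD-PM2.5), constant light with filtered air (LL-FA) and a light/dark cycle with filtered air (LD-FA). PM2.5 is fine particulate matter that reaches the deep lung. Whether both libraries of a group come from different animals is not stated, so p-values measure only the spread between these libraries, which may be technical. The sources used here give no sex, hour of collection or preparation batch, and the study's ATAC-seq was not analysed here.

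Oxidative phosphorylation is the step in which the inner mitochondrial membrane turns the energy of reduced cofactors into ATP. Complex I takes electrons from NADH and complex II from succinate, complex III passes them to cytochrome c, complex IV hands them to oxygen, and the protons pumped on the way drive the ATP synthase. Most subunits are encoded in the nucleus and a small core in mitochondrial DNA, so both genomes have to supply parts. The liver uses this capacity for gluconeogenesis, urea synthesis and the oxidation of fatty acids.

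Libraries held between 22214720 and 31819109 fragments, and the 7 counted hepatocyte markers summed to between 27606 and 37431 FPKM, high in each, as the labelled tissue would have it. Transcripts of other tissues stood out in a few libraries. The 10 skeletal muscle markers summed to 659 FPKM in LL-FA replicate 1, to 334.5 in LD-FA replicate 1 and to 37.4 in LD-FA replicate 2, against 0.572 to 1.66 FPKM in the other 5. The 9 pancreas markers reached 3448 FPKM in LD-FA replicate 1, against 17.8 to 338 elsewhere. The 5 white adipocyte markers reached 30.2 FPKM in LL-FA replicate 1, against 3.22 to 7.50 elsewhere. In bulk RNA, fewer cells of a type and less RNA per cell cannot be told apart.

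The members were abundant in every library. Their median level was 128 FPKM, against 6.43 FPKM over the 11316 genes tested. A mean of 500 FPKM or more was reached by 6 members, 100 or more by 57 and 10 or more by 78. Summed over members, FPKM came to 15502 and 16734 in LL-PM2.5, 13800.1 and 16751 in the LD-PM2.5 libraries, 14881 and 19161 in the LL-FA libraries, and 18207 and 16192 in LD-FA. This was 3.07% to 3.98% of all FPKM listed. The group means of the sum were 16118 ± 871 in LL-PM2.5, 15276 ± 2087 in the LD-PM2.5 libraries, 17021 ± 3027 in the LL-FA libraries and 17199 ± 1425 in LD-FA (SD, n = 2 each), and the ranges of the 4 groups overlapped.

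Levels differed by complex and by role, on the FPKM scale, as means over the 8 libraries. The ATP synthase held the highest member, Atp5g3, which encodes the c subunit of the rotor ring (chromosome 2, 73908447 to 73911326, GRCm38/mm10), at 743 FPKM. It stood at 696 and 774 FPKM in LL-PM2.5, 628 and 772 in the LD-PM2.5 libraries, 693 and 850 in the LL-FA libraries, and 800.2 and 727 in LD-FA, so its groups overlapped. The catalytic subunit gene Atp5b averaged 710 FPKM and the alpha subunit gene Atp5a1 496 FPKM. In complex III the highest was Uqcrq at 674 FPKM, a small subunit, and the lowest were the core protein Uqcrc2 and the small subunit Uqcrb, both at 148 FPKM. In complex IV the highest as listed was Cox8a at 632 FPKM, the ubiquitous form of subunit 8, followed by Cox4i1 at 563 and Cox6a1 at 506 FPKM. Ndufa4, named for complex I but now assigned to complex IV, averaged 497.5 FPKM.

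Complex I differed by role. Of its 7 core subunits, Ndufs1, which carries iron-sulfur clusters, was the lowest at 51.9 FPKM, and Ndufs7, which carries the last cluster before ubiquinone, stood at 119 FPKM. The highest accessory subunit was Ndufb9 at 403 FPKM. The 8 Ndufaf assembly factors, which help to build the complex but are not part of it, lay between 4.43 FPKM (Ndufaf5) and 27.4 FPKM (Ndufaf8). The 4 genes of complex II lay within a narrow range, with Sdhd at 240 FPKM, Sdha at 217.5, Sdhb at 182 and Sdhc at 134 FPKM. Sdha encodes the flavoprotein that oxidises succinate, Sdhb the iron-sulfur subunit, and Sdhc and Sdhd the membrane anchor.

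For some members the listed level is uncertain, because transcribed pseudogenes have nearly the same sequence and the authors' counting could have split the fragments. Of the pseudogenes in the table, 39 matched transcripts of 21 members over at least 150 aligned bases at 95% identity or more. For 8 members the copies summed to more FPKM than the gene. Cox7c, a small complex IV subunit, was listed at 26.7 FPKM and its copy Gm12338, identical over 192 aligned bases, at 590 FPKM. Atp5l, subunit g of the ATP synthase, was listed at 1.60 FPKM on 15 to 29 fragments per library, while its 7 copies summed to 253.5 FPKM, 250.5 of it in Gm10221, identical over 309 bases. Atp5g1 was listed at 78.8 FPKM and Gm10039, 99.8% identical over 411 bases, at 204.7. Ndufab1, the mitochondrial acyl carrier protein, stood at 13.0 FPKM with 107 in its copies. The other 4 were Uqcrb, Atp5h, Ndufs5 and Ndufa12. Cox6c, listed at 416 FPKM, came to 717 FPKM with its copies, mostly Cox6c2, which is above Cox8a at 632 FPKM. The order of levels within complex IV is therefore uncertain. Gene and copies of Cox7c together came to 607 and 679 FPKM in LL-PM2.5, 504 and 602 in the LD-PM2.5 libraries, 507 and 753 in the LL-FA libraries, and 705 and 577 in LD-FA. Both LL-PM2.5 values lay above both LD-PM2.5 values, and the other groups overlapped.

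**Figure D1:**
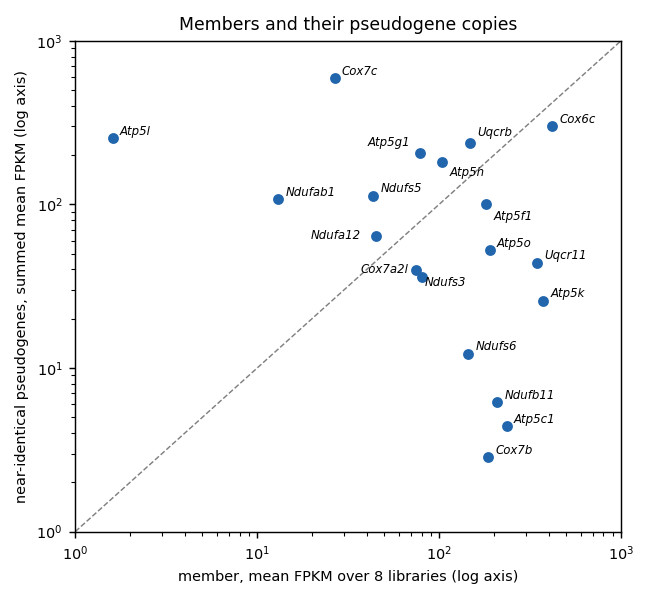
Mean FPKM of each member over 8 libraries (x, log axis) against the summed mean FPKM of its near-identical pseudogenes (y, log axis), for members whose copies reached 1 FPKM; the dashed line marks equal values. Cox7c (26.7 against 590 FPKM) and Atp5l (1.60 against 253.5 FPKM) lie farthest above the line.

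Promoter sequence shows what some members share beyond their names. The factor NRF1, a known activator of respiratory chain genes, binds a palindrome-like site, searched here as GCGCATGCG on both strands, where matches can overlap. RefSeq promoters (GRCm38.p6, 250 bases before to 50 after the gene start) were given for 76 of the 97 members, and 10 of them held the letters, which is 13.2%. The share was 4.33% of 8296 tested genes with a promoter and 1.95% of all 27025. The 10 were Atp5g2, Atp5k, Atp5l, Cox6a1, Ndufa11, Ndufa8, Ndufaf4, Ndufaf5, Uqcr11 and Uqcrc1. The site of the estrogen-related receptors, searched as TCAAGGTCA on both strands, was in 2 of 76 (2.63%; Atp5g3 and Sdhd), against 0.313% of tested genes. A match describes the letters only. The 4 promoters printed here, 1 each from complexes I, III and IV and the ATP synthase, show the NRF1 letters in capitals, 5′ to 3′ on the coding strand, which is the minus strand for all 4. They span chr2:36049289-36049588 (Ndufa8), chr10:80406772-80407071 (Uqcr11), chr5:115348909-115349208 (Cox6a1) and chr5:108434350-108434649 (Atp5k). The first capital lies 9 bases before the start in Ndufa8, 5 in Uqcr11, 162 in Cox6a1 and 50 in Atp5k. In Cox6a1 and Atp5k matches on both strands overlap.
Ndufa8: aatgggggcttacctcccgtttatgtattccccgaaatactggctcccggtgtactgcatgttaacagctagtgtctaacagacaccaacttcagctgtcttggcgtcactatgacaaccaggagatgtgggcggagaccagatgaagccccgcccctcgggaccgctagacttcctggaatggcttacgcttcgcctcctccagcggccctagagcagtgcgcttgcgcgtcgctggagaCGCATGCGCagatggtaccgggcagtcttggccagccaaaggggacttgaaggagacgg
Uqcr11: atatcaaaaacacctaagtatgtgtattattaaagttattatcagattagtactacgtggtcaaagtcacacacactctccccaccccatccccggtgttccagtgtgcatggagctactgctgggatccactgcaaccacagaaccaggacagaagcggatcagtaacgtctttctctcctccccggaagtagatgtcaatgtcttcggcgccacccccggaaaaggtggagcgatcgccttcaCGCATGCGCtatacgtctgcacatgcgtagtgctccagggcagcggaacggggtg
Cox6a1: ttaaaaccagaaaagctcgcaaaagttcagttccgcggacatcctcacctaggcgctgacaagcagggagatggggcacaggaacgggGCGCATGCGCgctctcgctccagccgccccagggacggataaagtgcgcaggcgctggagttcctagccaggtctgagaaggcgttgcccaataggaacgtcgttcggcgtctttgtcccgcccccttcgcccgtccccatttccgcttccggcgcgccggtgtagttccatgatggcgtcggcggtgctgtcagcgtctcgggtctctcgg
Atp5k: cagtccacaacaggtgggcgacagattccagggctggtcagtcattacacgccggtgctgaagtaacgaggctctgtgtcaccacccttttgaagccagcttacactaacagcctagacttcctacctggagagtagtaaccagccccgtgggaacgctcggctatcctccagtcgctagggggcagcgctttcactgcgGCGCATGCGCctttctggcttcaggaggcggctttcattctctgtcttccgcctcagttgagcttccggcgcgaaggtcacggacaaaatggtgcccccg

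The main pattern was that members of all complexes moved up and down together from library to library, mostly within groups. On the log2 CPM scale (CPM is fragments scaled to library size, here with TMM, which corrects for composition), each member's value was set against its own mean over the 8 libraries, and the median over the 90 tested members was taken. This median deviation was -0.09 and 0.08 in LL-PM2.5, -0.25 and 0.01 in the LD-PM2.5 libraries, -0.09 and 0.20 in the LL-FA libraries, and 0.16 and -0.03 in LD-FA. LD-PM2.5 replicate 1 was the lowest library and LL-FA replicate 2 the highest, and the ranges of all 4 groups overlapped. The SD between replicates, pooled over groups, was 0.17.

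Within LL-PM2.5, 82 of the 90 members were lower in replicate 1, within LD-PM2.5 83 and within LL-FA 81, while within LD-FA 83 were higher in replicate 1. Over all tested genes the share lower in replicate 1 was 48.9% to 49.9% in each group. On the FPKM scale, which carries the authors' own length scaling in each library, 56 members were lower in LL-PM2.5 replicate 1, 76 in that of LD-PM2.5 and 72 in that of LL-FA, and 79 were higher in LD-FA replicate 1. Both scales gave the same direction, and the LL-PM2.5 gap was smaller in FPKM.

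**Figure D2:**
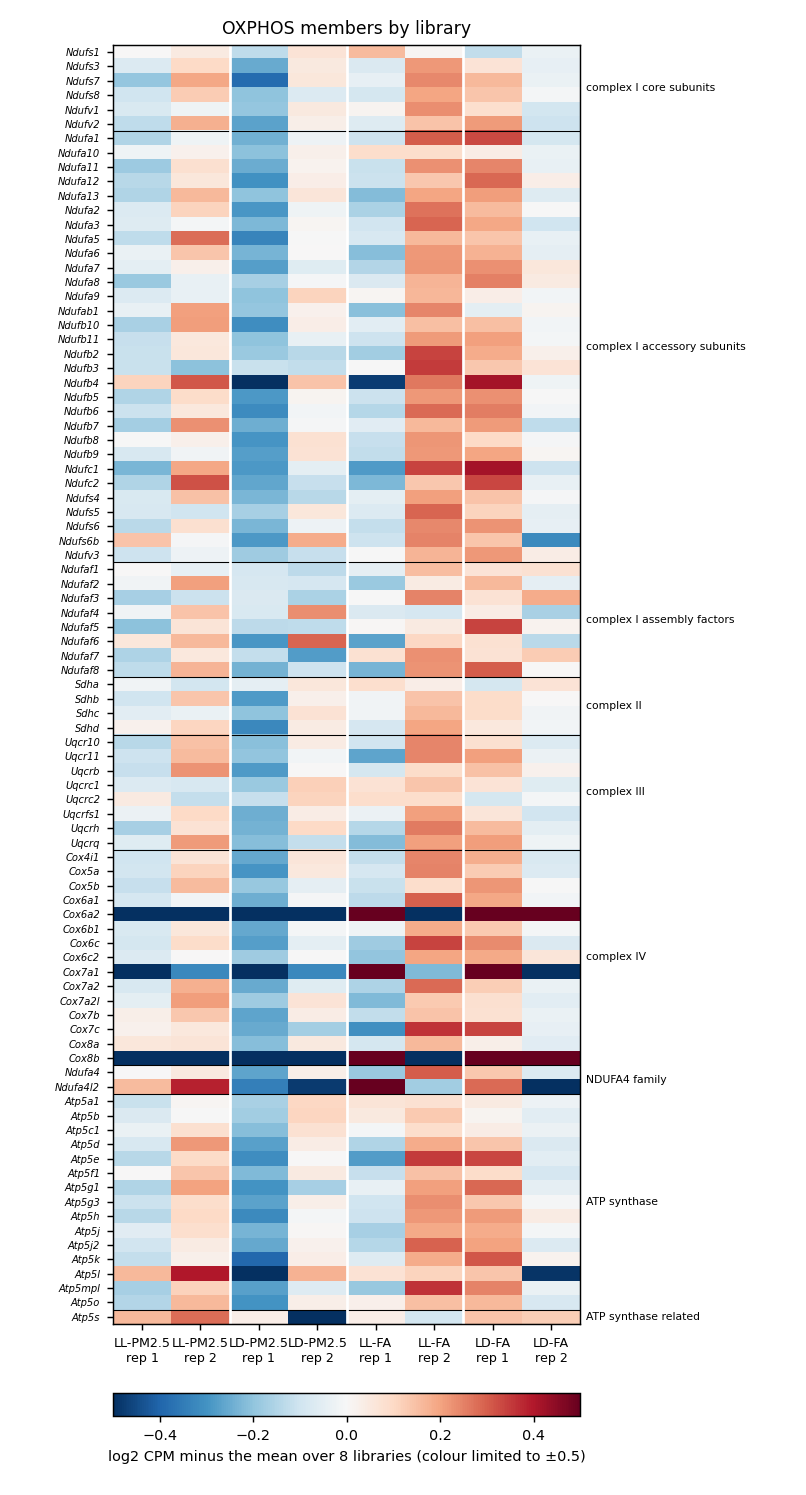
Each of 89 of the 90 tested members (rows, by complex and role) in each library (columns, by group), as log2 CPM minus the member's mean over 8 libraries, with colour limited to 0.5 either way. Most rows of every complex are blue in LD-PM2.5 replicate 1 (median -0.25) and red in LL-FA replicate 2 (median 0.20) and LD-FA replicate 1 (median 0.16).

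The joint movement was seen in nearly every pair of members. Over the 8 libraries the median pairwise Pearson r was 0.76, against -0.00 for pairs of all tested genes, and 3700 of 4005 pairs (92.4%) had an r above 0. With the median of the other members, 80 of 90 had an r of at least 0.5 and 49 of at least 0.9. These correlations describe only these 8 libraries, whose preparation is not stated, and carry no test. Of a typical member's variance, 31.7% lay between the 4 groups, against 47.4% for a typical tested gene and the 42.9% that the degrees of freedom alone would give. From the lowest to the highest library, a typical member differed 1.47-fold in FPKM.

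Other gene lists and the length of the transcript moved with this pattern. The members are short by the median length of each gene's annotated transcripts. Their median was 651 bases against 1848.5 over all tested genes, and 66 of the 90 were under 1 kb. All 2877 tested genes under 1 kb had median deviations of -0.03 and 0.06 in LL-PM2.5, -0.08 and -0.04 in the LD-PM2.5 libraries, -0.05 and 0.09 in the LL-FA libraries, and 0.10 and -0.01 in LD-FA. The 1631 genes over 4 kb ran the other way, at 0.06 and -0.12, 0.15 and 0.15, 0.07 and -0.14, and -0.15 and 0.01 in the same order. The 80 cytosolic ribosomal protein genes stood at -0.19 and 0.27 in LL-PM2.5, -0.21 and -0.04 in the LD-PM2.5 libraries, -0.15 and 0.17 in the LL-FA libraries, and 0.18 and -0.05 in LD-FA. The 77 mitochondrial ribosomal protein genes stood at -0.06 and 0.09, -0.15 and -0.11, -0.07 and 0.15, and 0.14 and -0.02. The 4 members of 2 to 4 kb (Atp5a1, Atp5g1, Ndufaf4 and Ndufb2, by the median length of a gene's annotated transcripts) had medians of -0.11 and 0.10, -0.17 and -0.02, -0.06 and 0.14, and 0.12 and -0.03. The 20 members of 1 to 2 kb had -0.04 and 0.07, -0.20 and 0.05, -0.01 and 0.15, and 0.07 and -0.03. In LD-PM2.5 against LD-FA, these 20 and all 3160 tested genes of that length both had a median log2 fold change of -0.08. Members under 1 kb had -0.22 there, and all tested genes under 1 kb -0.12. The annotated length need not be that of the transcript present, so single members may be misplaced. Ndufs1, at 651 bases, had 5584 fragments at 55.8 FPKM in LL-PM2.5 replicate 1. Ndufb2, at 2413 bases, had 1761 fragments at 137.5 FPKM there. By the length scaling in FPKM, Ndufs1 is thus longer than Ndufb2. The part of transcript length or RNA quality in the pattern was not tested.

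**Figure D3:**
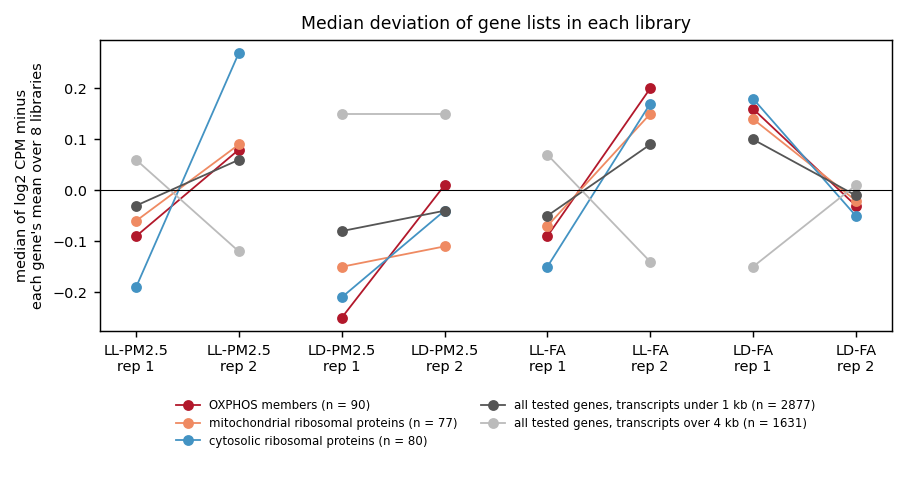
Median deviation in log2 CPM from each gene's mean over 8 libraries (y), for the members, both ribosomal protein lists and all tested genes by transcript length, with lines joining the 2 libraries of a group. The members and the ribosomal lists are lower in replicate 1 of LL-PM2.5, LD-PM2.5 and LL-FA and higher in replicate 1 of LD-FA, and genes over 4 kb tend the other way.

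LD-PM2.5 against LD-FA shows the particles' association with these transcripts in animals that kept a day and a night. Pairwise comparisons that name the same group share its libraries. The median log2 fold change of the 90 members was -0.20 (0.87-fold), with 84 below 0 and 6 above. Over all tested genes the median was -0.01, with 51.6% below 0. The cytosolic and mitochondrial ribosomal lists both had a median of -0.20, genes under 1 kb -0.12 and those over 4 kb 0.21. The members' median was thus no lower than that of either ribosomal list. No member passed the edgeR quasi-likelihood test at an adjusted p of 0.05 (percent of all genes called: 0), and the smallest adjusted p was 0.454. At an unadjusted p under 0.05 there were 2, both lower (4.18% of all genes), and none was higher (6.78%). The 2 were Cox6a2 and Cox8b, which reached the 1 FPKM needed for the test only in filtered air libraries. Lower in PM2.5 was thus the only direction open to them. DESeq2 (1.33% of all genes) and limma on log2(FPKM + 1) (0%) called no member. In FPKM, both LD-PM2.5 libraries lay below both LD-FA libraries for 22 members (18.7% of all genes) and above for 3 (24.6%), namely Ndufs1, Sdha and Uqcrc2. Since the members move together, the 84 are not 84 independent observations. Without LD-PM2.5 replicate 1 the median was -0.08, and without LD-FA replicate 1 it was -0.09.

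Every complex had a median below 0 in that comparison, and all 15 tested members of complex IV and all 15 of the ATP synthase were below 0. The median was -0.22 for the 30 members counted as accessory subunits of complex I, -0.11 for the 7 core subunits and -0.21 for the 8 assembly factors. It was -0.12 for complex II, -0.10 for complex III, -0.22 for complex IV and -0.18 for the ATP synthase. The accessory count includes the pseudogene Ndufs6b and that of complex IV the pseudogene Cox6c2. Ndufv3, an accessory subunit of the NADH-oxidising arm, stood at 120 and 136 FPKM in LD-PM2.5, against 169 and 153 in LD-FA, with all values lower in LD-PM2.5 (-0.27 ± 0.13 SE, edgeR adjusted p = 0.484). On the other side were Ndufaf4, an assembly factor, at 0.14 ± 0.15, Ndufs1 at 0.05 ± 0.13 and Uqcrc2 at 0.05 ± 0.13, all of which stood below 0 without LD-PM2.5 replicate 2.

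The comparison of LL-PM2.5 with LL-FA asks the same under constant light. The median was -0.07 (0.95-fold), with 68 members below 0 and 22 above, against 49.3% below and 50.7% above over all genes. The cytosolic and mitochondrial ribosomal lists had medians of 0.04 and -0.02, genes under 1 kb 0.00 and those over 4 kb 0.01. No member passed edgeR (0% of all genes), the smallest adjusted p was 0.989, and DESeq2 (0.513% of all genes) and limma (0.00884%) called none. At an unadjusted p under 0.05 there were 4, all lower (2.71% of all genes, with 2.12% higher), which were Cox8b, Cox6a2, Cox7a1 and Ndufb3. Cox8b and Cox6a2 entered the test only through filtered air libraries. The groups did not overlap for 14 members, all lower in LL-PM2.5 (11.6% of all genes lower and 9.65% higher). Ndufb3, an accessory subunit of the membrane arm, stood at 78.2 and 63.0 FPKM in LL-PM2.5, against 84.5 and 94.5 in LL-FA (-0.34 ± 0.14 SE, adjusted p = 0.989). Higher but not called were Ndufaf2, an assembly factor, at 0.17 ± 0.15, Ndufaf4 at 0.15 ± 0.15 and Atp5s, which encodes coupling factor B, at 0.25 ± 0.25. Without LL-FA replicate 2 the median turned to 0.09, and without LL-PM2.5 replicate 1 to 0.02.

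Averaged over light, PM2.5 against filtered air gave a median of -0.11 (0.92-fold), with 84 members below 0 and 6 above, against 50.5% below 0 over all genes. The cytosolic and mitochondrial ribosomal lists stood at -0.07 and -0.11, genes under 1 kb at -0.05 and those over 4 kb at 0.11. The members' median was -0.05 without LL-FA replicate 2 and -0.07 without LD-PM2.5 replicate 1. It was -0.20, -0.18 and -0.17 without LL-FA replicate 1, LD-PM2.5 replicate 2 and LL-PM2.5 replicate 2. edgeR called no member (0.0177% of all genes) and 7 were at an unadjusted p under 0.05, all lower (4.5% of all genes lower and 5.54% higher). They were Cox8b, Cox6a2, Ndufb3 at -0.28 ± 0.10, Cox7a1, Ndufaf3 at -0.26 ± 0.10, Ndufaf7 at -0.25 ± 0.10 and Ndufv3 at -0.21 ± 0.09, with adjusted p of 0.396 to 0.491. Ndufaf7 is a methyltransferase, and Ndufaf3 an early assembly factor. limma called none (0.0177% of all genes) and DESeq2 called Cox8b (1.42%). Here too Cox8b and Cox6a2 had passed the filter only through filtered air libraries. In no member did the 4 PM2.5 libraries all lie on one side of the 4 filtered air libraries (1.59% of all genes above and 1.81% below). The members furthest on the other side were Ndufaf4 at 0.14 ± 0.10, Ndufaf6 at 0.12 ± 0.16 and Atp5l at 0.09 ± 0.29. Ndufaf6 turned to -0.04 and Atp5l to -0.13 without LD-PM2.5 replicate 2, and Atp5l to -0.07 without LD-FA replicate 2.

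**Figure D4:**
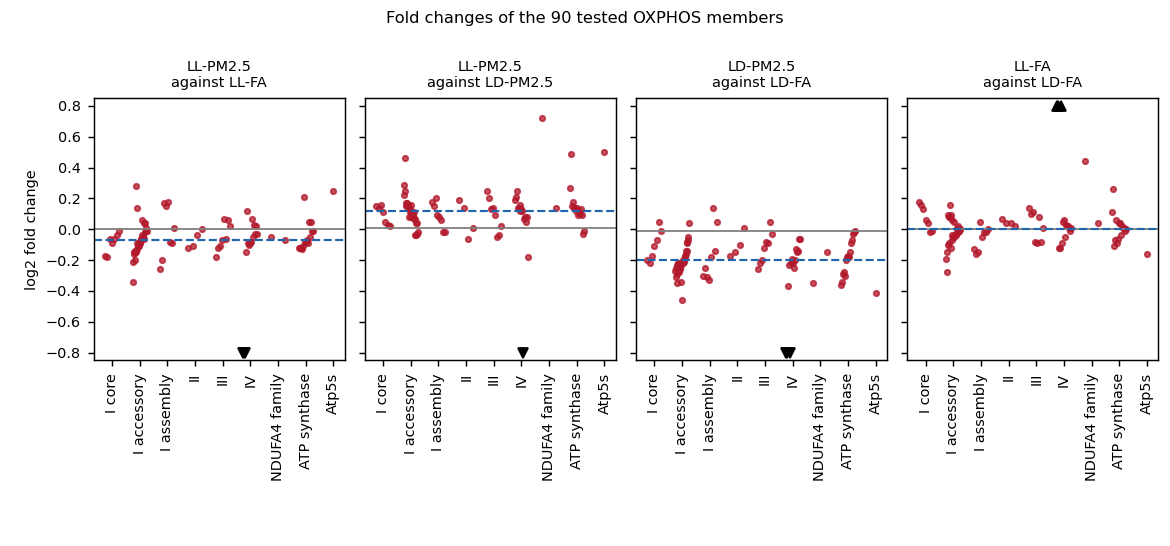
log2 fold change of each tested member (points, by complex and role) in the 4 pairwise comparisons, with the members' median as a dashed blue line and that of all tested genes as a grey line; black triangles mark complex IV members beyond 0.8. The members' median is -0.07, 0.12, -0.20 and 0.00 from left to right, and the points beyond 0.8 are Cox6a2, Cox7a1 and Cox8b.

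Constant light was compared within each kind of air. Between LL-FA and LD-FA the median was 0.00, with 45 members on each side (49.9% of all genes below 0 and 50.1% above), and complex medians lay between -0.03 and 0.06 outside the Ndufa4 pair and Atp5s. edgeR called no member (0% of all genes), all adjusted p were 1, none had an unadjusted p under 0.05 (1.19% of all genes higher and 1.55% lower), and DESeq2 (0.38%) and limma (0%) called none. In 2 members, Atp5b among them, both LL-FA libraries lay above both LD-FA libraries (10.7% of all genes), and no member had them below (11.3%). Atp5b stood at 734 and 764.5 FPKM in LL-FA, against 721 and 670 in LD-FA (0.11 ± 0.16 SE). Of the smallest p on the lower side were Ndufc2 at -0.19 ± 0.21, Ndufaf5 at -0.16 ± 0.19 and Ndufaf2 at -0.13 ± 0.15. The median depended on single libraries, from -0.15 without LL-FA replicate 2 to 0.14 without LL-FA replicate 1.

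Between LL-PM2.5 and LD-PM2.5 the median was 0.12 (1.09-fold), with 77 members above 0 and 13 below, against 51.1% above 0 over all genes. The cytosolic and mitochondrial ribosomal lists were at 0.20 and 0.17, genes under 1 kb at 0.09 and those over 4 kb at -0.18. edgeR called no member (0% of all genes), the smallest adjusted p was 0.577, none had an unadjusted p under 0.05 (3.54% of all genes higher and 5.68% lower), and DESeq2 (1.23%) and limma (0.00884%) called none. Both LL-PM2.5 libraries lay above both LD-PM2.5 libraries for 12 members (12.3% of all genes) and below for 2 (18.3%), Cox8b and Ndufaf3. Atp5s stood at 3.54 and 2.77 FPKM in LL-PM2.5, against 3.27 and 1.52 in LD-PM2.5 (0.50 ± 0.25 SE), and its groups overlapped. Ndufa4l2, the paralog of Ndufa4 known as a hypoxia-induced gene, stood at 1.54 and 1.98 FPKM in LL-PM2.5, against 1.06 and 1.07 in LD-PM2.5 (0.72 ± 0.43 SE, 19 to 44 fragments). Ndufs4, an accessory subunit needed for a stable NADH arm, was at 0.22 ± 0.15. Below 0 were Sdha at -0.06 ± 0.13 and Uqcrc1 at -0.05 ± 0.14. Without LD-PM2.5 replicate 1 the median was 0.01, and without LL-PM2.5 replicate 2 it was 0.03. This comparison shares LD-PM2.5 with that against LD-FA, so a low LD-PM2.5 library enters both.

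Averaged over air, constant light against the light/dark cycle gave a median of 0.06, with 82 members above 0 and 8 below (51.3% above 0 over all genes). Both ribosomal lists had a median of 0.07, genes under 1 kb 0.04 and those over 4 kb -0.07. edgeR, DESeq2 and limma called no member (0% of all genes in edgeR), none had an unadjusted p under 0.05, and the smallest adjusted p was 0.863. Over all genes 2.18% were higher and 3.48% lower at that unadjusted p, and DESeq2 called 0.813% and limma 0.00884%. No member had all 4 constant light libraries above or below the other 4 (0.68% of all genes above and 1.56% below). Without LL-FA replicate 2 the median was -0.01, without LD-PM2.5 replicate 1 it was 0.01, and it reached 0.13 without LL-FA replicate 1 or LD-PM2.5 replicate 2. Ndufa4l2 was highest at 0.58 ± 0.30, followed by Cox7a1 at 0.55, and Cox8b was lowest at -0.30. Of smallest p above 0 were Ndufa4l2, Atp5l at 0.38 ± 0.29 and Ndufs1 at 0.11 ± 0.09. Those of smallest p below 0 were Ndufa8 at -0.06 ± 0.10, Ndufaf5 at -0.05 ± 0.13 and Cox6c2 at -0.03 ± 0.11.

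The interaction asks whether the PM2.5 difference depended on light, as the LL difference minus the LD difference. Its median over members was 0.13, with 72 above 0 and 18 below (50.4% above 0 and 49.6% below over all genes). For the cytosolic and mitochondrial ribosomal lists it was 0.24 and 0.17, for genes under 1 kb 0.10 and for those over 4 kb -0.22. edgeR, DESeq2 and limma called no member (0% of all genes in edgeR), the smallest adjusted p was 0.843, and none had an unadjusted p under 0.05 (1.97% of all genes higher and 2.91% lower, with 0.292% called by DESeq2 and 0.0177% by limma). Atp5s was at 0.66 ± 0.36, Ndufc2 at 0.48 ± 0.30 and Ndufaf2 at 0.31 ± 0.21, and on the other side stood Uqcrc2 at -0.18 ± 0.19. Without LL-FA replicate 1 the median was -0.02, without LD-FA replicate 1 or LD-PM2.5 replicate 1 it was 0.02, and without LL-FA replicate 2 it was 0.28. A difference of PM2.5 between light regimes was not detectable for any member with 2 libraries a group, where the median SE of the interaction was 0.26 over all genes.

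A few members did not follow the others. With the median of the other members, r was -0.17 for Sdha, -0.05 for Atp5s, 0.03 for Cox6a2, 0.04 for Ndufs1, 0.08 for Cox8b, 0.11 for Uqcrc2, 0.12 for Ndufa4l2, 0.19 for Cox7a1, 0.27 for Ndufaf4 and 0.47 for Ndufaf3. Sdha stood at 225 and 193 FPKM in LL-PM2.5, 222 and 223 in the LD-PM2.5 libraries, 240.1 and 211 in the LL-FA libraries, and 207 and 218 in LD-FA. It was the steadiest of the 90, with a range of 0.17 on the log2 CPM scale. Its partner Sdhb stood at 164.5 and 206 FPKM in LL-PM2.5, 144 and 184 in the LD-PM2.5 libraries, 166 and 210.3 in the LL-FA libraries, and 196 and 185 in LD-FA. Sdhb thus followed the common pattern and Sdha did not, although both belong to complex II. The median annotated transcript is 1811 bases for Sdha and 1142 for Sdhb, and the part of transcript length in this contrast was not tested. Ndufs1 stood at 55.8 and 48.6 FPKM in LL-PM2.5, 51.1 and 52.5 in the LD-PM2.5 libraries, 62.8 and 48.4 in the LL-FA libraries, and 48.9 and 46.8 in LD-FA. Its highest library, LL-FA replicate 1, was one in which most members were low. Uqcrc2 stood at 171 and 119 FPKM in LL-PM2.5, 153 and 147 in the LD-PM2.5 libraries, 176 and 139 in the LL-FA libraries, and 147 and 130.2 in LD-FA, likewise highest in LL-FA replicate 1. In LL-PM2.5 replicate 1, Sdha had 23645 fragments at 225 FPKM, Ndufs1 5584 at 55.8 and Uqcrc2 10592 at 171. Sdhb had 7317 at 164.5 and Atp5s 171 at 3.54. By the length scaling in FPKM, Sdha, Ndufs1 and Uqcrc2 are thus longer than Sdhb, and Atp5s is close to it. The part of length in their values was not tested.

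The muscle and heart isoforms of complex IV had the widest range, and it came from a few libraries. Cox6a2, Cox7a1 and Cox8b encode forms of subunits 6a, 7a and 8 found in striated muscle, and Cox7a1 and Cox8b are also high in brown fat; the liver uses Cox6a1, Cox7a2 and Cox8a. All 3 lie on chromosome 7 (GRCm38/mm10), Cox7a1 at 30184144 to 30186078, Cox6a2 at 128205435 to 128206387 and Cox8b at 140898945 to 140900446. Cox6a2 had 2 and 0 fragments in LL-PM2.5, 0 and 2 in the LD-PM2.5 libraries, 377 and 0 in the LL-FA libraries, and 158 and 28 in LD-FA. Cox8b had 1 and 1 in LL-PM2.5, 2 and 4 in the LD-PM2.5 libraries, 251 and 3 in the LL-FA libraries, and 99 and 28 in LD-FA. Both genes were thus high in LL-FA replicate 1 and LD-FA replicate 1, lower in LD-FA replicate 2, and near 0 in all PM2.5 libraries and in LL-FA replicate 2.

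Cox7a1 was read in every library and was highest in the same 2. It stood at 2.45 and 4.27 FPKM in LL-PM2.5, 2.27 and 4.07 in the LD-PM2.5 libraries, 21.0 and 4.82 in the LL-FA libraries, and 10.3 and 3.70 in LD-FA. In LL-FA replicate 1 the muscle form made up 5.19% of Cox6a1 and Cox6a2 together, 8.48% of Cox7a2 and Cox7a1, and 6.12% of Cox8a and Cox8b. In LD-FA replicate 1 these shares were 1.71%, 3.66% and 2.27%. The libraries are those in which the 10 skeletal muscle markers summed to 659 and 334.5 FPKM, and the order of the 3 highest libraries is the same for the markers and for Cox6a2 and Cox8b. The 5 markers of heart and slow muscle summed to 15.6 FPKM in LL-FA replicate 1, to 9.51 in LD-FA replicate 1 and to at most 1.11 elsewhere. Ucp1, the uncoupling protein that defines brown fat, stood at 7.92 FPKM in LL-FA replicate 1, at 0.204 in LL-PM2.5 replicate 1 and at 0 in the other 6. The 4 brown fat markers besides Cox8b summed to between 124.2 and 332.7 FPKM in the PM2.5 libraries and between 457.5 and 537.5 in those of filtered air, nearly all of it Elovl3, which stood at 123 to 537 FPKM in every library. The part of muscle or fat RNA in these values was not tested.

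**Figure D5:**
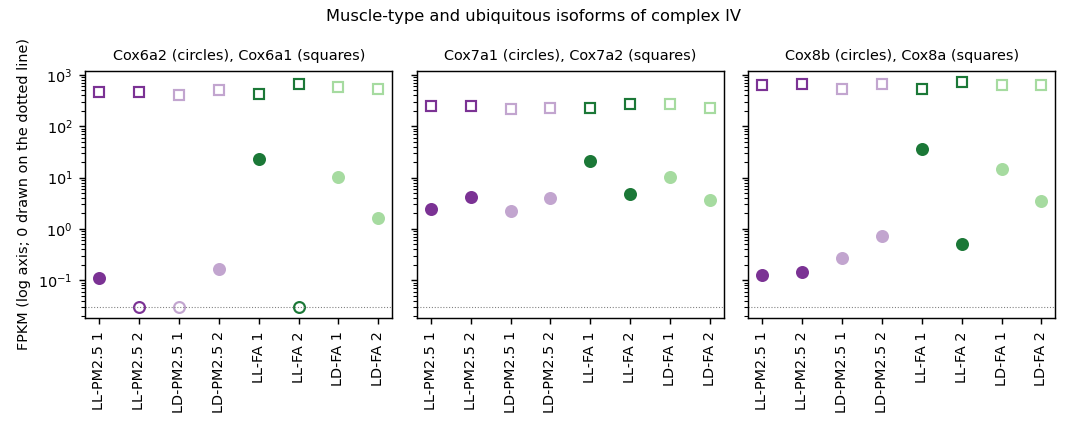
FPKM (log axis) of the muscle-type isoforms (circles) and their ubiquitous counterparts (squares) of complex IV in each library, with values of 0 drawn as open circles on the dotted line. The muscle forms are highest in LL-FA replicate 1 (Cox8b at 35.4 FPKM) and LD-FA replicate 1 (Cox8b at 14.9 FPKM), while the ubiquitous forms stay above 200 FPKM in all 8.

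These isoforms gave the largest fitted folds of all members without passing the test. Cox6a2 and Cox8b reached 1 FPKM, the level needed to be tested, only in filtered air libraries. For LD-PM2.5 against LD-FA, edgeR gave Cox6a2 -6.23 ± 2.64 (SE, adjusted p = 0.454) and Cox8b -4.18 ± 1.79 (adjusted p = 0.456). For LL-PM2.5 against LL-FA it gave Cox6a2 -7.49 ± 2.57, Cox8b -6.91 ± 2.05 and Cox7a1 -2.08 ± 0.84 (adjusted p = 0.989 each). Averaged over light it gave Cox6a2 -6.86 ± 1.84 and Cox8b -5.55 ± 1.36 (adjusted p = 0.396 each) and Cox7a1 -1.60 ± 0.59. With so few fragments in the PM2.5 libraries the folds of Cox6a2 and Cox8b depend on the fit's prior and are not bounds. Without LL-FA replicate 1, Cox6a2 turned to 3.09 in LL-PM2.5 against LL-FA, and Cox7a1 in LL-FA against LD-FA turned to -0.68, against 1.02 ± 0.79 with all libraries. The interaction for Cox8b, -2.73 ± 3.25, turned to 2.39 without that library.

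The remaining members of the isoform families were listed at low levels. Cox4i2, the lung form of subunit 4, stood between 0 and 0.353 FPKM, and Cox6b2, a testis form, between 0 and 0.382 FPKM, at most 0.0612% and 0.124% of their pairs with Cox4i1 and Cox6b1. Ndufa4l2 made up 0.213% to 0.475% of its pair with Ndufa4. The testis forms Cox7b2 and Cox8c were listed at 0 throughout. Atp5g2, a further gene for the c subunit, stood between 0.348 and 1.02 FPKM, but its level is uncertain. The copies Gm10175 and Gm10231 are identical to it over 645 and 441 aligned bases and were both listed at 0, so its fragments may not have been assigned.

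The other genes of the pathway were read for the same 7 comparisons, and edgeR called none of them (0 of 39 other assembly factors, 0 of 18 regulators, 0 of 12 carriers and partners and 0 of 14 citrate cycle enzymes, in either direction). The assembly factors outside the name rule had a median of -0.10 in LD-PM2.5 against LD-FA, with 29 of 39 below 0, and 0.04 in LL-PM2.5 against LD-PM2.5. The 18 regulators had medians of 0.02 and 0.01 there. Their library medians lay between -0.07 and 0.09, and they did not follow the members' order. Ppara, the receptor that switches on fatty acid oxidation in the fasting liver, stood at 34.9 and 44.7 FPKM in LD-PM2.5, against 10.6 and 19.1 in LD-FA (1.39 ± 0.49 SE, edgeR adjusted p = 0.438), with no overlap. In constant light it stood at 33.7 and 13.8 FPKM in LL-PM2.5, against 26.7 and 14.1 in LL-FA, with overlap.

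The known activators of respiratory genes were read by name. In LD-PM2.5 against LD-FA, Ppargc1a, the coactivator PGC-1alpha, was at 0.26 ± 0.23, its partner Esrra at -0.04 ± 0.25, Nrf1 at 0.31 ± 0.17, Gabpa at -0.14 ± 0.13 and Tfam, which packages and transcribes mitochondrial DNA, at -0.14 ± 0.11. In LL-PM2.5 against LD-PM2.5, Tfam was at 0.24 ± 0.11 (edgeR adjusted p = 0.546), with 21.5 and 18.01 FPKM in LL-PM2.5, against 16.9 and 16.9 in LD-PM2.5. None of the 5 had an unadjusted p under 0.05 in any comparison.

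Among the citrate cycle enzymes, Idh3a, a subunit of the NAD-dependent isocitrate dehydrogenase, stood at 16.2 and 11.3 FPKM in LL-PM2.5 and 13.99 and 11.2 in LD-PM2.5, against 21.9 and 13.9 in LL-FA and 19.7 and 13.8 in LD-FA. Averaged over light this was -0.40 ± 0.11 (edgeR adjusted p = 0.396), and Idh3g of the same enzyme was at -0.21 ± 0.08. Idh2, the mitochondrial NADP-dependent form, was at 0.35 ± 0.10 for constant light averaged over air (adjusted p = 0.665). Slc25a4, the ADP/ATP carrier of heart and muscle, stood at 43.9 FPKM in LL-FA replicate 1 and 22.6 in LD-FA replicate 1, against 2.99 to 5.06 in the other 6 libraries, the libraries in which the muscle isoforms were also highest. The mitochondrially encoded subunits could not be compared. All 13 were listed, 9 at 0 in every library and the highest, mt-Atp6, at 0.255 FPKM in its highest library, so none was tested.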

How the data were processed

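Liver RNA of 8 libraries in 4 groups was analysed from 1 deposited table. Per the submitters' processing notes it was made with STAR, Cufflinks and Cuffdiff on mm10; the sources used here give no version, option or strand. Per the file headers, the authors deposited an estimated count of fragments for every gene and library, unscaled, beside their FPKM with its own scaling. With zeros included, 99.0% of the counts were whole to 0.01, and all were rounded to be tested. The 47 genes with a status other than OK were left out, and summing rows that share a symbol gave 48323 symbols.

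The 11316 genes that reached 1 FPKM in 2 or more libraries entered edgeR 4.0.16 under R 4.3.3 (quasi-likelihood F test, TMM). A prior count of 2 was used for the log2 CPM values only, and the fit kept edgeR's default. All 4 groups shared the fit, which left 4 residual degrees of freedom (prior 3.46, biological coefficient of variation 21.4%). P-values are two-sided and Benjamini-Hochberg adjusted across the 11316 genes, and 0.05 was the threshold. Each SE was taken from F as |log2 fold change| over its root. The median SE was 0.19 for a pair of groups, 0.13 for an average and 0.26 for the interaction, at 22214720 to 31819109 fragments a library. Tested on simulated data for LD-PM2.5 against LD-FA (11316 genes), the fit called 95 of 100 genes changed 4-fold, 25 of 100 changed 2-fold and 8 of 11116 unchanged. Alternatives were DESeq2 1.42.0, limma 3.58.1 with a trend on log2(FPKM + 1) and log2(FPKM + 0.1), median-of-ratios scaling, no filter, a filter at 5 FPKM, a block for replicate number, and fits that each lack a library. Pseudogene copies were found with BLAST 2.17.0 on GENCODE vM21 transcripts. Python 3.11.15, numpy 2.4.6, pandas 2.3.3 and matplotlib 3.10.9 were used.

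Members and lists were chosen with earlier results of these data known. Named members were, per comparison, the 3 of smallest p in each direction where none passed, the highest per complex, the tissue isoforms, complex II and the ends of ranges; of other lists, the 2 of smallest p, of which the clearest are given, and 5 regulators. Atp5b, Atp5a1, the members with abundant copies and those of low correlation with the rest were named after their values were seen. From the cytosolic ribosomal list, kinases and a binding protein that share the prefix were removed by name. A member that the rule names is counted in all tests and medians but is not reported here by name.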

Additional observations from a re-analysis of the deposited data

How the results depend on the processing

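No member passed in any of the 7 comparisons with edgeR, median-of-ratios scaling, limma on either FPKM scale, the filter at 5 FPKM or any left-out library. Without a filter, 2 members passed in LD-PM2.5 against LD-FA (Cox6a2 and Cox8b; 647 genes in all, 2.81%). Cox6a2, Cox7a1 and Cox8b, 3 members, passed in LL-PM2.5 against LL-FA (476 genes, 2.07%) and in PM2.5 against filtered air (696 genes, 3.02%). DESeq2 called 1, Cox8b, for PM2.5 averaged over light (-5.63). The cause was not tested. The members' median differed from the reported one by less than the replicate SD of 0.17 in 110 of 112 refits. The 2 others left out LD-FA replicate 1 and LL-FA replicate 1 together, the libraries of highest muscle marker sums, and gave 0.23 for LL-FA against LD-FA and -0.11 for the interaction.

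Leaving out 1 library at a time, the median ranged from -0.29 to -0.08 for LD-PM2.5 against LD-FA, from -0.15 to 0.14 for LL-FA against LD-FA, from -0.21 to 0.09 for LL-PM2.5 against LL-FA, from 0.01 to 0.26 for LL-PM2.5 against LD-PM2.5, from -0.20 to -0.05 for PM2.5 averaged over light, from -0.01 to 0.13 for light averaged over air and from -0.02 to 0.28 for the interaction. A group left with 1 library was assumed to vary like the others.

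With the replicate number as a block, 0 members passed in each comparison and the medians were -0.21, -0.01, -0.07, 0.13, -0.12, 0.05 and 0.14 in the same order. The correlations of same-numbered deviations between groups were -0.59 to 0.33. They cannot show whether same-numbered libraries share a preparation, which is not stated.

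The direction changed in 26 of 663 values, each that of a named member in a comparison and refit, and none of the 26 was a call. Without LD-PM2.5 replicate 2, LD-PM2.5 against LD-FA gave Ndufaf4 -0.01, Ndufs1 -0.04 and Uqcrc2 -0.05 (up to 0.15 without replicate 1), LL-PM2.5 against LD-PM2.5 gave Uqcrc1 0.11 (-0.18 without replicate 1), and the PM2.5 average gave Ndufaf6 -0.04 (0.24 without replicate 1) and Atp5l -0.13 (-0.07 without LD-FA replicate 2). In LL-FA against LD-FA, Ndufc2 and Ndufaf5 both came to 0.01 without LD-FA replicate 1, with lowest values of -0.37 and -0.31, and Cox7a1 to -0.68 without LL-FA replicate 1 and 2.08 without LD-FA replicate 1. Without both of those libraries Ndufc2 came to 0.17, Ndufaf2 to 0.08 and Ndufaf5 to 0.03. Cox6a2 in LL-PM2.5 against LL-FA came to 3.09 without LL-FA replicate 1, with or without LD-FA replicate 1, and to -10.55 without LL-PM2.5 replicate 1. For light averaged over air, Ndufa8 came to 0.00 and 0.05, Ndufaf5 to 0.02 and 0.04, and Cox6c2 to 0.01, 0.02, 0.07 and 0.09. The Cox8b interaction came to 2.39 without LL-FA replicate 1, 1.0 without both and -4.12 without LD-FA replicate 1. The cause was not tested. Genes with few fragments (Cox6a2, Cox8b, Atp5l, Ndufa4l2) are the least precise.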
